A study of Rattus norvegicus with 9 samples.

Results

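A set of 10 genes of the response to low oxygen was followed in the ileum of rats after gastric bypass: Hif1a, Egln1, Egln3, Vegfa, Adm, Bnip3, Higd1a, Ddit4, Ndrg1 and Ankrd37. They were picked by symbol from both deposited expression tables. Of the 10 symbols 9 had a value in each table, out of 17120 genes in all, and no row carries the symbol Egln1. The animals of all groups were Otsuka Long-Evans Tokushima fatty rats, an inbred strain without a functional cholecystokinin-A receptor, which overeats and develops obesity and diabetes. The labels give 3 groups with 3 replicates each, all from the ileum, the last stretch of the small intestine: Roux-en-Y gastric bypass (RYGB) with FDG decreased, RYGB with FDG increased, and a sham operation. Sampling was 1 month after the operation. In RYGB a small stomach pouch is joined to the jejunum, so food no longer passes most of the stomach and the duodenum. FDG is taken here as fluorodeoxyglucose, a labelled glucose analogue used to image glucose uptake, since the labels do not spell it out. They give no age or sex and do not say whether replicates are separate animals, so all p-values describe the spread among these samples, which may be technical.

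Hypoxia-inducible factor (HIF) is a pair of proteins, an oxygen-labile alpha subunit and a stable partner, that switches on genes when oxygen is short. In normal oxygen the prolyl hydroxylases, Egln1 and Egln3 among them, mark the alpha subunit for destruction through the von Hippel-Lindau protein, so much of the control of Hif1a acts on its protein and not on its RNA. In the gut the surface epithelium works at low oxygen in health, and HIF targets there serve barrier function, iron uptake and glucose use. The targets followed here are a growth factor for vessels (Vegfa), a peptide that widens vessels (Adm), proteins of mitochondrial removal and respiration (Bnip3, Higd1a), a brake on growth signalling (Ddit4), a hydroxylase that feeds back on HIF (Egln3), and Ndrg1 and Ankrd37, which hypoxia induces in many cell types.

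HIF binds the short core ACGTG or GCGTG, and the stretch before the start of each gene was searched for it on both strands. The bases are RefSeq's for the rat build GRCr8. An entry was found for 9 of the 10 genes, and Ndrg1 is named only. At least 1 core lay within 250 bases upstream in 6 of the 9 genes: Hif1a, Bnip3, Higd1a, Ddit4, Ankrd37 and Egln1. Of all 33469 such promoters 36.7% hold one. The entries of Adm, Vegfa and Egln3 hold none in this window. The stretches of 5 genes are printed 5′ to 3′ in the direction of the gene. These genes were picked by their differences given below, none of which passed limma's adjusted threshold without regard to pairs. Capitals mark the core in either direction, and in the run CACGTG the core reads on both strands, as overlapping matches counted separately. Hif1a lies at chr6:98359648-98359897 (plus strand, 3 matches), Higd1a at chr8:130400889-130401138 (minus strand, 3 matches), Bnip3 at chr1:203154963-203155212 (minus strand, 4 matches), Adm at chr1:174179950-174180199 (plus strand, 0 matches) and Ddit4 at chr20:28437038-28437287 (minus strand, 2 matches).
Hif1a: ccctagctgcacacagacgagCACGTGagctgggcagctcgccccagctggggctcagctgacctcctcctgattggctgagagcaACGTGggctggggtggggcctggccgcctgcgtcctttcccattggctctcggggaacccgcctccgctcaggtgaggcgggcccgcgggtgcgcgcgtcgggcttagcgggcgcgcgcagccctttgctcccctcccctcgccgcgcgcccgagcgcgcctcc
Higd1a: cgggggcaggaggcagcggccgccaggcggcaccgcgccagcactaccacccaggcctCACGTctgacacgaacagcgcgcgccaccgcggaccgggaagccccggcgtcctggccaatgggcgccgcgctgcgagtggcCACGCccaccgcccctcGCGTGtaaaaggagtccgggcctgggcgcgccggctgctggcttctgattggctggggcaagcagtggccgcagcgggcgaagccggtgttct
Bnip3: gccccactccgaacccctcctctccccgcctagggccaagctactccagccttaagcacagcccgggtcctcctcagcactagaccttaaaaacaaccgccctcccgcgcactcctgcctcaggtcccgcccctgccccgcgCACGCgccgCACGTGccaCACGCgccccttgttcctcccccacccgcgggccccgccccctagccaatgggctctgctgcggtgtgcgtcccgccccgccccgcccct
Adm: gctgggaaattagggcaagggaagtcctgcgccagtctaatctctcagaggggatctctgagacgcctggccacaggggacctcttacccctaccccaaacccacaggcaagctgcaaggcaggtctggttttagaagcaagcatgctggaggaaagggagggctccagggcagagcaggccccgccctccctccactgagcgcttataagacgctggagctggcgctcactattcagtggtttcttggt
Ddit4: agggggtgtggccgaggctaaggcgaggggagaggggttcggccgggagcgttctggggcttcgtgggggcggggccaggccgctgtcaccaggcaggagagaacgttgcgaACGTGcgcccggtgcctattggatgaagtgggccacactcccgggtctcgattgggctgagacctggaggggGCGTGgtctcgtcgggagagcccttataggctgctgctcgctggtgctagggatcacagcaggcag
Adm, Hif1a, Higd1a and Bnip3 were lower in FDG-decreased than in FDG-increased ileum in every pair of libraries, and Ddit4 is the one furthest below sham in FDG-increased ileum. Of these 5 genes Adm alone holds no core in this window. Vegfa, not printed, was also lower in every pair, though nearly level in pair 3 (ratio 0.998), and holds no core either. A match is a string of letters and not a shown binding site.

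The values are FPKM, that is, fragments scaled to the length of the transcript and to the mapped total. One table, called the RYGB table here, holds the FDG-decreased and FDG-increased libraries, and the other, the sham table, holds FDG-increased and sham libraries, each scaled on its own. As 2 FDG-increased libraries stand in both tables, there are 10 distinct libraries. The FDG-increased group thus has 4 libraries where the labels list 3 samples. Read depth is unknown. The summed FPKM per library was 465697 to 864511, and 10332 to 10892 genes reached 1 FPKM. Some libraries stood apart. Summed FPKM of RYGB replicate 2 was high in both groups, at 827636 in FDG-decreased and 847267 in FDG-increased ileum. The other RYGB libraries had 475536 to 616365. RYGB replicate 3 of both groups was low in T cell markers, with a mean log2 level of 1.59 in FDG-decreased and 1.46 in FDG-increased ileum, against 3.46 to 3.81 in the other RYGB libraries. Sham replicate 1 was low in ileal absorptive cell markers, at 4.51 against 8.08 and 8.61 in the other sham libraries, and high in markers of the upper intestine, at 5.73 against 3.84 and 2.89; in that library the ileum label goes against its own markers.

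In sham ileum the genes spanned a wide range of levels. Ndrg1 was the highest at 98.1 ± 47.6 FPKM, followed by Hif1a at 40.7 ± 13.2, Higd1a at 29.2 ± 12.2, Vegfa at 28.2 ± 8.06 and Egln3 at 25 ± 9.76 (SD, n = 3 for each). Bnip3 averaged 18.5 ± 10.9, Ddit4 15.4 ± 5.09, Adm 2.67 ± 0.734 and Ankrd37 1.91 ± 0.494 FPKM (SD, n = 3 for each). Neighbours in this order had overlapping sham values, except Ndrg1 with Hif1a and Ddit4 with Adm. The other neighbours cannot be ordered beyond their spread. Some genes further apart did separate. The lowest sham values of Hif1a (29.35 FPKM), Vegfa (23.51) and Higd1a (21.05) lay above the highest of Ddit4 (20.28), while Egln3 and Bnip3 overlapped Ddit4. FPKM is per length, so these levels may be set side by side.

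**Figure D1:**
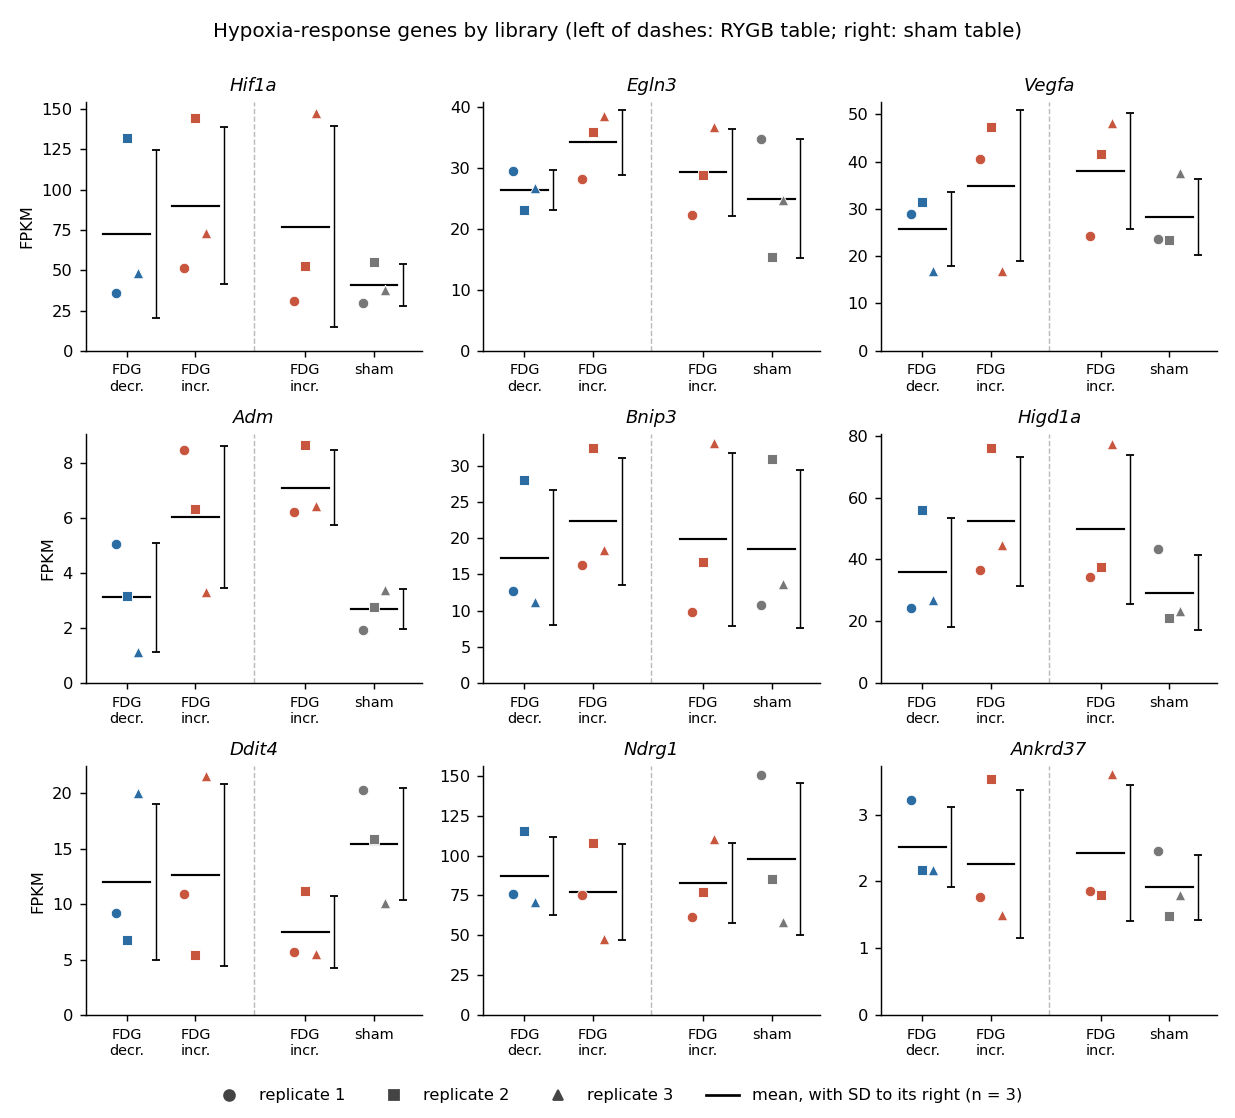
FPKM of the 9 genes in every library (y axis, linear from 0), 1 panel per gene. Within a panel the FDG-decreased and FDG-increased libraries of the RYGB table stand left of the dashed line and the FDG-increased and sham libraries of the sham table right of it; symbols give the replicate number within its table, horizontal lines the mean and vertical bars the SD (n = 3). Within the sham table Adm is the one gene whose FDG-increased values, 6.20 to 8.66 FPKM, all lie above its sham values of 1.91 to 3.37 FPKM, while its lowest FDG-increased value in the RYGB table is 3.30 FPKM, and Hif1a, Higd1a and Bnip3 are highest in replicate 2 of both RYGB groups.

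The first comparison asks how ileum after bypass with FDG increased differed from ileum after a sham operation. None of the 9 genes passed the threshold of 0.05 in limma after Benjamini-Hochberg adjustment over 10801 genes. Of all genes 0.037% passed it, which is 4 genes. The member furthest from sham was Adm, at 7.10 ± 1.36 FPKM in FDG-increased and 2.67 ± 0.734 FPKM in sham ileum (SD, n = 3 each), a ratio of means of 2.65. Ddit4 stood on the other side, at 7.48 ± 3.22 FPKM in FDG-increased and 15.4 ± 5.09 FPKM in sham ileum (SD, n = 3 each). The log2 difference was above 0 for 7 of the 9 genes and below 0 for 2, with a median of 0.27. Over all genes the median was 0.13 and 64.7% lay above 0. Shifting the libraries to the same median moved all genes by about that much and left 6 of the 9 members above 0 with a median of 0.14, Bnip3 being the one that turned. An unadjusted p under 0.05 was reached by 2 members, Adm above and Ddit4 below sham, where 6.15% of all genes reached it above and 1.69% below. In a bulk sample fewer cells of a type and less RNA per cell cannot be told apart.

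Adm encodes adrenomedullin, a peptide that relaxes vessels and tightens the endothelium. Its values were 6.20, 8.66 and 6.44 FPKM in FDG-increased ileum, against 1.91, 2.75 and 3.37 FPKM in sham ileum. No sham library reached the lowest FDG-increased value, and 10.7% of all genes had their FDG-increased libraries above sham in this way. On the log2 scale the difference was 1.15 (SE 0.256, 95% interval 0.57 to 1.73), with a limma adjusted p of 0.301 after Benjamini-Hochberg adjustment, and its p ranked 55 of 10801; over the alternatives tried the adjusted p was 0.183 to 1. The single FDG-increased library that the sham table lacks held 3.37 FPKM on the scale of the sham table, at the top of the sham range and below the other FDG-increased libraries. Set against sham within lane 7, where all sham libraries were run, the difference was 0.99 with the FDG-increased library of that lane by its number and 1.41 by its shared column, since number and shared column point to different libraries.

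Ddit4, also called REDD1, restrains the growth kinase mTORC1 and answers to hypoxia, glucocorticoids and stress. Its values were 5.72, 11.2 and 5.53 FPKM in FDG-increased ileum, against 20.3, 15.9 and 10.1 FPKM in sham ileum. The highest FDG-increased library overlapped the lowest sham library. Ddit4 differed by -0.97 on the log2 scale (SE 0.344, 95% interval -1.74 to -0.19), with a limma adjusted p of 0.563 after Benjamini-Hochberg adjustment. Its highest sham value is that of sham replicate 1, the library with markers of the upper intestine. Without that library the difference was -0.75, with an unadjusted limma p of 0.0811 against 0.0205 with all libraries. The FDG-increased library of the RYGB table alone held 22 FPKM on the sham scale, above all sham libraries and thus on the other side. Within lane 7 the difference was -1.24 by number and -0.38 by shared column.

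Hif1a, the oxygen-labile subunit, had values of 30.8, 52.8 and 148 FPKM in FDG-increased ileum, against 29.4, 55.2 and 37.6 FPKM in sham ileum. The mean of 77.1 ± 62.1 FPKM in FDG-increased ileum against 40.7 ± 13.2 FPKM in sham ileum (SD, n = 3 each) rests on FDG-increased replicate 3, which has the highest sum of FPKM. In limma Hif1a differed by 0.65 on the log2 scale (SE 0.54, 95% interval -0.57 to 1.87; adjusted p after Benjamini-Hochberg adjustment 0.807) and by 0.03 without that library. Hif1a overlaps a long noncoding RNA in RefSeq's gene table, and whether the counting used strand is not given in the sources used here. Egln3, a prolyl hydroxylase that is itself a HIF target, had values of 22.3, 28.8 and 36.6 FPKM in FDG-increased ileum, against 34.8, 15.3 and 24.8 FPKM in sham ileum. These groups overlapped throughout (log2 difference 0.27, SE 0.352).

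Vegfa, the growth factor that draws in vessels, had values of 24.3, 41.5 and 48.2 FPKM in FDG-increased ileum, against 23.6, 23.5 and 37.5 FPKM in sham ileum. In each group at least 1 library reached the range of the other, and the log2 difference was 0.39 (SE 0.349; limma adjusted p after Benjamini-Hochberg adjustment 0.819). Endothelial markers, 12 of 12 measured and none at 0, had a mean log2 level of 3.29 to 3.65 in FDG-increased and 3.20 to 3.79 in sham ileum.

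Higd1a, a small inner-membrane protein that helps respiration survive low oxygen, had values of 34.4, 37.4 and 77.5 FPKM in FDG-increased ileum, against 43.3, 21.0 and 23.4 FPKM in sham ileum. Only sham replicate 1, the library with markers of the upper intestine, reached the FDG-increased range. In limma it differed by 0.72 on the log2 scale (SE 0.411; adjusted p after Benjamini-Hochberg adjustment 0.711), and by 1.03 without sham replicate 1, with a limma adjusted p of 0.515. Bnip3, a mitochondrial receptor for autophagy, had values of 9.83, 16.7 and 33.1 FPKM in FDG-increased ileum, against 10.7, 31.0 and 13.7 FPKM in sham ileum. Its groups covered the same range (log2 difference 0.08, SE 0.49), and the sign turned under other scalings, with lane in the fit and without FDG-increased replicate 3, sham replicate 1 or sham replicate 3. Sham replicate 2, the sham library high in Bnip3, was also the one high in adipocyte markers, with a mean log2 level of 4.24 against 1.78 and 2.65 in the other sham libraries and 1.69 to 2.40 in FDG-increased ileum; their part in the result was not tested. RefSeq names 8 pseudogenes after Bnip3, none with a value of its own here, so its FPKM may hold reads of near copies.

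Ndrg1, a stress-induced protein of epithelial differentiation, had values of 61.2, 76.9 and 110.4 FPKM in FDG-increased ileum, against 150.8, 85.5 and 58.0 FPKM in sham ileum. The spread within sham exceeded the distance between the groups (log2 difference -0.17, SE 0.418). The difference turned to 0.19 without sham replicate 1, the highest sham library, and to 0.02 without FDG-increased replicate 1. Ankrd37, an ankyrin-repeat protein and direct HIF target, had values of 1.86, 1.80 and 3.6 FPKM in FDG-increased ileum, against 2.45, 1.48 and 1.80 FPKM in sham ileum (log2 difference 0.21, SE 0.272). It was the lowest member in sham ileum, and at this level the added pseudocount of 1 narrows any difference. Ankrd37 overlaps Lrp2bp and Higd1a overlaps Ccdc13 in RefSeq's table, so shared reads are possible for both.

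The second comparison sets the 2 kinds of bypass ileum against each other. A set of 5 members, Adm, Higd1a, Hif1a, Bnip3 and Vegfa, was lower in FDG-decreased than in FDG-increased ileum in all 3 same-numbered pairs, as were 12.7% of all 10739 genes tested. Without regard to the pairs, limma called 0 members and 0% of all genes after Benjamini-Hochberg adjustment. At an unadjusted p under 0.05 that fit had 0 members and 1.02% of all genes. Libraries of the same number were alike in this table. Their deviations from the group mean correlated over genes at 0.845, 0.763 and 0.768. The labels state no pairing, and by their numbers pairs 1 and 2 each shared a lane. The likeness was read from the same values that were then tested with the block. With the replicate number as a block, limma called 1 member, Adm, lower in FDG-decreased ileum, where 0.689% of all genes were called lower and 1.14% in either direction. On the log2 scale 7 of the 9 members lay below 0 and 2 above, with a median of -0.36, beside 0.02 over all genes.

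**Figure D2:**
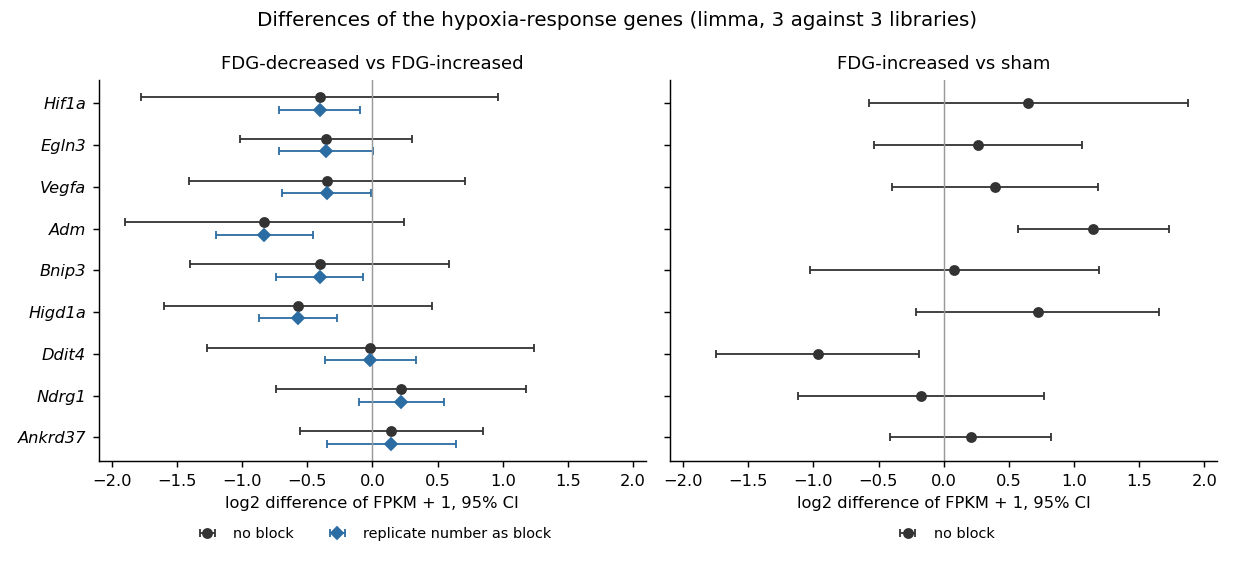
Log2 differences of FPKM + 1 (x axis) with 95% intervals for the 9 genes (y axis), from limma with 3 against 3 libraries. The left panel shows FDG-decreased minus FDG-increased without a block (circles) and with the replicate number as a block (diamonds), and the right panel FDG-increased minus sham. In the left panel the block narrows each interval without moving its centre, and the interval of Adm with the block runs from -1.2 to -0.46; in the right panel that of Adm runs from 0.57 to 1.73 and that of Ddit4 from -1.74 to -0.19.

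Adm was at 5.05, 3.15 and 1.12 FPKM in FDG-decreased ileum, against 8.46, 6.31 and 3.30 FPKM in FDG-increased ileum. Taken as groups the ranges overlapped, while within pairs the FDG-decreased library held 0.597, 0.499 and 0.339 of its partner's level. Without the block limma gave a log2 difference of -0.83 (SE 0.458; adjusted p after Benjamini-Hochberg adjustment 1), which was -0.41 without FDG-decreased replicate 3 and -0.53 with lane as a covariate. Within pair 1, both libraries of which were run in lane 7 by their numbers, it was -0.64. For every gene the lane fit takes nothing from FDG-decreased replicate 3, which was alone in its lane. It sets FDG-decreased replicate 2 against FDG-increased replicates 2 and 3 together, so lane and replicate cannot be told apart in it. With the block its SE was 0.167 and its limma adjusted p 0.0454, and its p ranked 117 of 10739. That call lay close to the threshold: with the block, limma gave adjusted p of 0.0718 after shifting the libraries to the same median, 0.0655 after quantile normalization, and 0.165, 0.0546 and 0.0839 with pair 1, 2 or 3 left out.

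Higd1a was at 24.3, 56.1 and 27.0 FPKM in FDG-decreased ileum, against 36.6, 75.9 and 44.5 FPKM in FDG-increased ileum. Its FDG-decreased libraries held 0.664, 0.739 and 0.605 of their partners' level, the most even of the 5 genes. With the block limma gave a log2 difference of -0.57 (SE 0.135; adjusted p 0.0916 after Benjamini-Hochberg adjustment), against an adjusted p of 1 without it. With the block and without pair 2, the pair of high summed FPKM, limma gave -0.64 with an adjusted p of 0.0365, while without pair 1 or pair 3 the adjusted p was 0.566 or 0.258. With the block it was 0.131 after the median shift and 0.157 after quantile normalization. With lane as a covariate in place of the block the difference was -0.27.

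Hif1a was at 36.1, 132 and 48.6 FPKM in FDG-decreased ileum, against 51.6, 145 and 73.4 FPKM in FDG-increased ileum. Replicate 2 was far above the others in both groups, and the ratios within pairs were 0.701, 0.914 and 0.662 (log2 difference -0.41, block SE 0.141, limma adjusted p with the block 0.324). Bnip3 was also highest in replicate 2 of both groups, with 12.7, 28.1 and 11.2 FPKM in FDG-decreased ileum, against 16.3, 32.5 and 18.3 FPKM in FDG-increased ileum, and ratios of 0.777, 0.865 and 0.608. Its limma adjusted p with the block was 0.374 after Benjamini-Hochberg adjustment. With lane as a covariate in place of the block, the log2 difference was -0.01 for Hif1a and -0.04 for Bnip3, against -0.41 and -0.40 without it. That fit leaves FDG-decreased replicate 3 without weight. It sets the high FDG-decreased replicate 2 against FDG-increased replicates 2 and 3 together, so these values do not separate lane from replicate. In pair 1, whose libraries shared lane 7 by their numbers, the difference was -0.50 for Hif1a and -0.34 for Bnip3.

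Hif1a, Higd1a, Bnip3, Vegfa and Ndrg1 were highest in replicate 2 of both RYGB groups. That is 55.6% of the members, beside 49.1% of all genes tested, so it is near the background. Adm was highest in replicate 1 of both groups and Ddit4 in replicate 3 of both.

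Vegfa was at 28.9, 31.5 and 16.9 FPKM in FDG-decreased ileum, against 40.6, 47.3 and 16.9 FPKM in FDG-increased ileum. The ratio was 0.713 in pair 1 and 0.667 in pair 2, and in pair 3 the libraries were level at 0.998. With the block limma gave -0.35 (SE 0.154; adjusted p 0.506 after Benjamini-Hochberg adjustment), and with lane as a covariate in its place the difference was -0.12. Endothelial markers had a mean log2 level of 3.28 to 3.54 in FDG-decreased and 2.80 to 3.63 in FDG-increased ileum. On the higher side in FDG-decreased ileum were 11 of the 12, beside 55.2% of all genes, with 0 called. By pair the level was 3.30 against 3.27, 3.54 against 3.63 and 3.28 against 2.80. The distance thus rests on pair 3, where Vegfa was level.

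**Figure D3:**
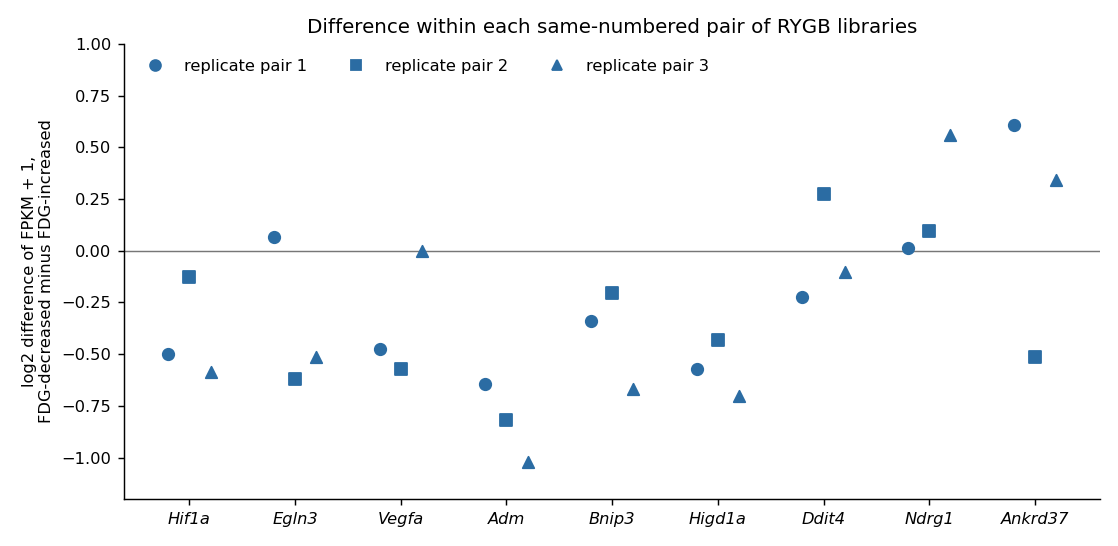
Log2 difference of FPKM + 1 between FDG-decreased and FDG-increased ileum within each same-numbered pair of RYGB libraries (y axis), for the 9 genes (x axis); symbols give the pair. Adm, Higd1a, Hif1a and Bnip3 lie below 0 in every pair, from -1.02 for Adm in pair 3 to -0.13 for Hif1a in pair 2, Vegfa lies at 0 in pair 3, and Ndrg1 lies at or above 0 in every pair.

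Egln3 was at 29.5, 23.0 and 26.7 FPKM in FDG-decreased ileum, against 28.2, 35.9 and 38.5 FPKM in FDG-increased ileum, with pair 1 level and pairs 2 and 3 lower (log2 difference -0.36; limma adjusted p with the block 0.535 after Benjamini-Hochberg adjustment). Ndrg1 went the other way without passing the test: 75.9, 115.5 and 70.9 FPKM in FDG-decreased ileum, against 75.2, 108 and 47.8 FPKM in FDG-increased ileum. Its ratios were 1.01, 1.07 and 1.48, and the distance rests on pair 3. Ddit4 was at 9.24, 6.77 and 20.0 FPKM in FDG-decreased ileum, against 10.9, 5.42 and 21.6 FPKM in FDG-increased ileum. Its libraries kept the same order by replicate in both groups, and the groups differed by -0.02 on the log2 scale. Ankrd37 was at 3.22, 2.17 and 2.17 FPKM in FDG-decreased ileum, against 1.76, 3.53 and 1.5 FPKM in FDG-increased ileum, and its pairs differed in sign.

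FDG-decreased ileum and sham ileum are in different tables, so their values were set on 1 scale with the factor 1.0217 from the shared libraries and not tested. All 9 members overlapped between these groups; over all genes 3.4% had all 3 FDG-decreased libraries higher and 1.84% all 3 lower. Of the members 5 were on the higher and 4 on the lower side, with a median log2 difference of 0.08 beside 0.13 over all genes, and that median was 0.30 without sham replicate 1 and -0.04 after all libraries had been shifted to 1 median. Adm averaged 3.17 ± 2.01 FPKM in FDG-decreased and 2.67 ± 0.734 FPKM in sham ileum, and Ddit4 12.3 ± 7.21 and 15.4 ± 5.09 FPKM in the same order (SD, n = 3 each). Hif1a averaged 73.9 ± 53.4 FPKM in FDG-decreased and 40.7 ± 13.2 FPKM in sham ileum, again through replicate 2 (SD, n = 3 each). The comparisons share FDG-increased libraries, so a gene high there is placed above both other groups by the same values.

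The rest of the pathway was read through lists of its parts, whose counts cover the listed genes that averaged 1 FPKM or more. Medians are log2 differences. Of the 13 genes of oxygen sensing, 10 were on the higher side in FDG-increased against sham ileum (median 0.21) and 10 on the lower side in FDG-decreased against FDG-increased ileum (median -0.07), with 0 called either time. Against sham the median was 0.08 with the median shift and 0.01 with quantile normalization, with 9 and 8 of the 13 on the higher side. Its most abundant genes were Tceb2, Rbx1 and Cited2 in the sham table and Tceb2, Rbx1 and Vhl in the RYGB table. Cited2 averaged 67.6 ± 9.96 FPKM in FDG-increased and 48.6 ± 15.6 FPKM in sham ileum (SD, n = 3 each). Tceb2, Rbx1 and Vhl are parts of the ligase that destroys the HIF alpha subunit. Tceb2, elongin B, averaged 200.9 ± 42 FPKM in FDG-increased and 142.8 ± 69.8 FPKM in sham ileum, and Rbx1 83.6 ± 41.2 and 54.7 ± 6.22 FPKM in the same order (SD, n = 3 each). Vhl, the recognition subunit, was at 47.7, 66.6 and 92 FPKM in FDG-increased ileum, against 33.5, 26.6 and 34.1 FPKM in sham ileum. Its FDG-increased libraries all lay above sham, as for 10.7% of all genes, and it was not called. Between the RYGB groups Vhl averaged 53.8 ± 22.2 FPKM in FDG-decreased and 65.6 ± 24.3 FPKM in FDG-increased ileum (SD, n = 3 each).

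Of 24 further HIF targets 19 were on the higher side in FDG-increased against sham ileum (median 0.27), with 0 called; with the median shift or quantile normalization 16 were, with a median of 0.14 or 0.10. In FDG-decreased against FDG-increased ileum 10 were on the higher and 14 on the lower side (median -0.10), with 0 called with or without the block. The 3 most abundant targets of the list did not pass: Tff3, a goblet cell peptide, averaged 1623 ± 240 FPKM in FDG-increased and 1104 ± 422 FPKM in sham ileum, Abcb1a, a drug efflux pump, 333 ± 190 and 77.9 ± 29.3, and Tfrc, the transferrin receptor, 123 ± 68.0 and 122 ± 45.7 FPKM in the same order (SD, n = 3 each).

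**Figure D4:**
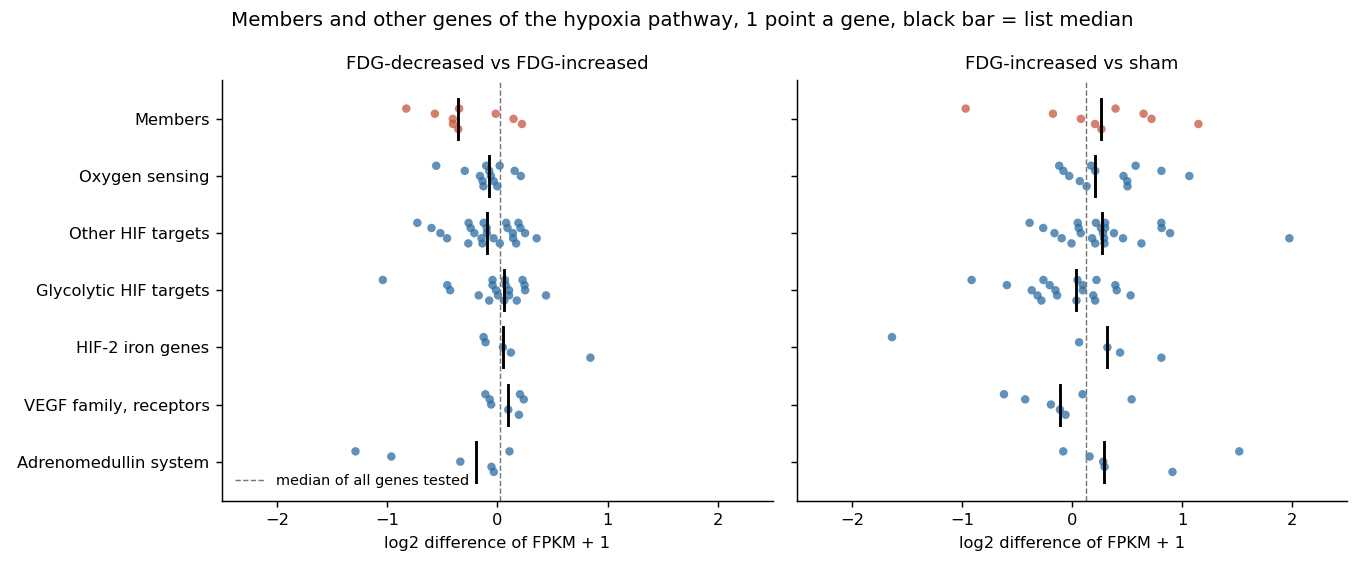
Log2 difference of FPKM + 1 (x axis) for the members and for each gene of 6 lists of the hypoxia pathway (y axis), FDG-decreased against FDG-increased on the left and FDG-increased against sham on the right. Each point is a gene, the black bar the list's median and the dashed line the median of all genes tested, 0.02 and 0.13. The members' medians lie at -0.36 and 0.27, the glycolytic targets' at 0.06 and 0.04. Cxcr7, in the adrenomedullin list, lies furthest from 0 in the left panel at -1.29 and Abcb1a, a HIF target, in the right panel at 1.97.

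Glycolytic HIF targets, the enzymes and transporters by which hypoxic cells burn glucose without oxygen, were split: 10 of 19 were on the higher side in FDG-increased against sham ileum (median 0.04, which turned to -0.09 with the median shift and -0.26 with quantile normalization), and 11 of 19 in FDG-decreased against FDG-increased ileum (median 0.06). None was called without the block. Gapdh averaged 856 ± 132 FPKM in FDG-increased and 955 ± 676 FPKM in sham ileum, Ldha 416 ± 53.4 and 892 ± 929, and Eno1 363.5 ± 11.8 and 445 ± 384 FPKM in the same order (SD, n = 3 each). The wide sham spread came from sham replicate 1, with 1734 FPKM of Gapdh, 1962.5 of Ldha and 887.9 of Eno1. Hk2, the hexokinase that traps glucose in the cell and FDG with it, was at 14.7, 13.7 and 23.9 FPKM in FDG-decreased ileum, against 37.8, 22.6 and 53.9 FPKM in FDG-increased ileum. With the block limma called it lower in FDG-decreased ileum, by -1.04 (SE 0.157) with an adjusted p of 0.0111, which became 0.15 without pair 1. In the sham table Hk2 averaged 27.2 ± 10.1 FPKM in FDG-increased and 18.4 ± 6.15 FPKM in sham ileum (SD, n = 3 each; limma adjusted p 0.758).

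Around Adm, the genes for its relatives, receptors and scavenger were on the higher side for 5 of 6 in FDG-increased against sham ileum (median 0.29, or 0.16 with the median shift and 0.15 with quantile normalization) and on the lower side for 5 of 6 in FDG-decreased against FDG-increased ileum (median -0.20). Cxcr7, now called Ackr3, binds adrenomedullin and removes it. It was at 18.1, 21.3 and 10.8 FPKM in FDG-decreased ileum, against 46.7, 73.2 and 19.6 FPKM in FDG-increased ileum, less than its partner in each pair. With the block limma gave -1.29 (SE 0.179) with an adjusted p of 0.00811, which became 0.0596 without pair 1. Against sham it averaged 50.3 ± 23.2 FPKM in FDG-increased and 17.7 ± 9.29 FPKM in sham ileum (SD, n = 3 each; limma adjusted p 0.548). The receptor Calcrl averaged 24.0 ± 15.5 FPKM in FDG-increased and 18.0 ± 6.23 FPKM in sham ileum, and its partner Ramp1 76.6 ± 6.14 and 41.0 ± 10.6 FPKM in the same order (SD, n = 3 each), with neither past the threshold.

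For VEGF relatives and receptors 2 of 7 were on the higher side in FDG-increased against sham ileum (median -0.11, or -0.24 with the median shift and -0.21 with quantile normalization) and 4 of 7 were so in FDG-decreased against FDG-increased ileum (median 0.10), with 0 called. Kdr, the main VEGF receptor of endothelium, averaged 10.9 ± 4.21 FPKM in FDG-increased and 12.4 ± 3.95 FPKM in sham ileum (SD, n = 3 each). Iron genes of the gut that answer to HIF-2 had 4 of 5 on the higher side in FDG-increased against sham ileum (median 0.32; 3 of 5 and 0.19 with the median shift, 3 of 5 and 0.21 with quantile normalization) and 3 of 5 in FDG-decreased against FDG-increased ileum (median 0.05), again with 0 called. Heph, the ferroxidase that passes iron to the blood, averaged 139 ± 56.5 FPKM in FDG-increased and 77.9 ± 29.8 FPKM in sham ileum (SD, n = 3 each).

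The partners of single members gave few calls. Of 6 mitophagy genes that work beside Bnip3, 5 were on the higher side in FDG-increased against sham ileum (median 0.53, or 0.23 with quantile normalization) and 3 in FDG-decreased against FDG-increased ileum (median -0.01), with 0 called. Of 8 regulators of mTORC1 besides Ddit4, 6 were on the higher side in FDG-increased against sham ileum (median 0.18, or 0.06 with the median shift and -0.02 with quantile normalization) and 7 in FDG-decreased against FDG-increased ileum (median 0.11), with 0 called. Glucocorticoid-responsive genes, a class to which Ddit4 belongs, had 6 of 10 on the lower side in FDG-increased against sham ileum (median -0.33, or -0.50 with quantile normalization) with 0 called. In FDG-decreased against FDG-increased ileum 7 of 10 were on the lower side (median -0.19), and limma with the block called Dusp1 and Errfi1 lower; for Errfi1 the adjusted p was 0.0679 without pair 1. ATF4 targets had 7 of 11 on the higher side in both comparisons (medians 0.33 against sham and 0.02 between the RYGB groups), with Ppp1r15a called lower in FDG-decreased ileum under the block. The 8 paralogues of the members had medians of 0.08 against sham, which turned to -0.04 with the median shift and -0.12 with quantile normalization, and -0.05 between the RYGB groups, with 0 called.

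Genes induced within minutes by ischaemia or handling, a list chosen with earlier results of these data known, lay on one side in each comparison. In FDG-increased against sham ileum 12 of 12 were on the higher side (median 2.71), beside 64.7% of all genes. Limma called 3, Fosb, Atf3 and Nr4a1, beside 0.037% of all genes. In FDG-decreased against FDG-increased ileum 12 of 12 were on the lower side (median -1.65), beside 44.8% of all genes. There 0 were called without the block and 8 with it, where 0.689% of all genes were called lower. Atf3, a transcription factor of the stress response, was at 80.9, 149.9 and 95 FPKM in FDG-increased ileum, against 9.60, 3.81 and 7.69 FPKM in sham ileum, a log2 difference of 3.80 (SE 0.378; limma adjusted p after Benjamini-Hochberg adjustment 0.0306). The 3 calls depended on the processing: limma gave Atf3 an adjusted p of 0.0671 with quantile normalization and 0.138 with no level filter. Without FDG-increased replicate 1 or 2 it was 0.0656 or 0.105, and without sham replicate 1 or 2 it was 0.0874 or 0.108. Fosb and Nr4a1 lost their calls in each of these as well and with a pseudocount of 0.1 (limma adjusted p 0.0553 for each), and with the median shift (0.0528 for Fosb and 0.0663 for Nr4a1). Lane as a covariate sets 1 FDG-increased library, taken by its number, against sham, and gave Atf3 a log2 difference of 3.42. Egr1, an early transcription factor of that list, is also the gene whose pattern over libraries was most like that of Adm. Pearson's r of log2(FPKM + 1) between them was 0.961 over the 6 libraries of the sham table and 0.967 over the 6 of the RYGB table. Hspb1, a heat shock protein, followed with 0.961 and 0.996. How far the early genes and Adm share a source was not tested.

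Other members resembled other genes. Hif1a was closest to Slc25a24 (0.995 in the sham table and 0.986 in the RYGB table) and Klf3 (0.985 and 0.99), Vegfa to Zfp295 (0.973 and 0.983) and to Adora2b (0.958 and 0.962), and Ndrg1 to Mmd (0.965 and 0.969). These are the highest of 10652 genes by the lower of the 2 values. The tables share 2 libraries, and libraries differ in summed FPKM, so the coefficients describe these columns only. Among the members themselves Hif1a and Bnip3 had the highest lower value of the 2 tables (0.866 in the sham table and 0.956 in the RYGB table). Ankrd37 with Higd1a had 0.94 in the sham table and 0.14 in the RYGB table, and Bnip3 with Higd1a had 0.188 and 0.973.

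Levels of cell-type markers stand beside these results. In FDG-increased against sham ileum the mean log2 level of macrophage and dendritic markers was 4.29 to 4.78 against 3.43 to 4.09, with 8 of 10 markers measured. For T and NK markers it was 3.35 to 3.84 against 2.08 to 3.00, with 10 of 10 measured, and for ileal absorptive cells 8.80 to 10.1 against 4.51 to 8.61, with 4 of 5 measured. Smooth muscle markers lay at 6.08 to 6.27 against 5.93 to 6.40, with 9 of 9 measured. None of the markers of these 4 lists was at 0 in all libraries of a group. In FDG-decreased against FDG-increased ileum macrophage markers spanned 2.40 to 4.08 against 2.17 to 4.75 and T and NK markers 1.59 to 3.58 against 1.46 to 3.81, with the low ends in replicate 3 of both groups. Markers of the upper intestine lay at 3.83 to 3.90 against 2.71 to 3.27, with 8 of 8 measured and Pdx1 at 0 in the FDG-increased libraries of the sham table, and ileal absorptive markers at 7.30 to 9.90 against 8.30 to 10.1. With the block limma called Lct and Gip of the upper intestine list higher in FDG-decreased ileum. General enterocyte markers lay at 8.65 to 9.88 against 7.79 to 8.99, with 8 of 9 measured and 7 of 8 on the higher side, and Alpi was called higher with the block. Their part in the members' values was not tested.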

How the data were processed

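Total RNA libraries of rat ileum were grouped by their titles. The authors deposited FPKM in 2 tables of 6 library columns and 17145 genes, made with bcl2fastq 1.8.4, STAR 2.6.0a, Cufflinks 2.2.1, Cuffdiff and DESeq2 1.24.0, per the submitters' processing notes; the version of Cuffdiff and all settings are not given in the sources used here. A human build, hg19, is listed, although the symbols are those of rat, so no coordinate comes from the tables. Per the labels' protocols a stranded kit with ribosomal RNA depletion was used. The number of sample columns left unused was 0, and 25 symbols turned into dates were left out. FPKM carries no counts, and low values showed no common step, so depth is unknown.

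Values were analysed as log2(FPKM + 1), which understates changes of low genes, for genes that averaged 1 FPKM or more over a table (10801 in the sham table and 10739 in the RYGB table; 9 of 9 members passed in each). Groups were compared within each table with limma 3.58.1 in R 4.3.3 (trend, robust variances, no covariate), with Benjamini-Hochberg adjustment over all genes and a threshold of 0.05. An exact permutation test of 3 against 3 cannot go below 0.1 and was not used. The code was tested on simulated data. Members, lists and tests were chosen with earlier results of these data known. All members were named; of a list, genes past the threshold in limma with or without the block and otherwise up to 3 of the highest mean FPKM; and per member the 2 genes of the highest lower Pearson r.

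FDG-increased column 2 of the sham table is FDG-increased column 1 of the RYGB table multiplied by 1.023, and column 3 is column 2 multiplied by 1.0204. Their numbers were therefore taken as names only in the sham table, except in the lane fits and the replicate block, which used them. Replicate numbers come from the labels, which do not say what they mark; the check of the pairs is given with the second comparison. By their numbers both libraries of pairs 1 and 2 were run in the same lane, so lane and pair cannot be told apart there. The lane of each FDG-increased column rests on its number, which differs between the 2 tables for the shared libraries. Promoter sequences are from RefSeq (GRCr8). Alternatives were another pseudocount, no level filter, other scalings, the replicate block, the lane and leaving out libraries; leaving out pairs and joining block and scaling were chosen after seeing the data. A gene of the list of further HIF targets is not reported here and was left out of that list's counts.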

Additional observations from a re-analysis of the deposited data

How the results depend on the processing

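Between FDG-increased and sham ileum, 0 members were called under all 17 alternatives. The 4 genes called of all genes became 1 with a pseudocount of 0.1 and 1 with libraries shifted to the same median. The number called was 0 with no level filter (1055 genes at an unadjusted p under 0.05 in limma) and with quantile normalization (812). With 1 library left out it was 0 to 13 (13 without FDG-increased replicate 3, 7 without sham replicate 3, 1 without sham replicate 1, 0 without the others). Lane as a covariate and lane 7 alone set 1 FDG-increased library of the sham table, taken by its number, against sham, so no count of genes is given for them. In that table the numbers do not pair the samples: same-numbered correlations were 0.35, -0.498 and -0.246, and the replicate block called 39 genes, 28 with the median shift and 1 with quantile normalization, and 0 members. Scaling moved the share of higher genes at an unadjusted p under 0.05 from 78.4% to 58.9% with the median shift and 59% with quantile normalization, and the median of all genes from 0.13 to 0.002 and -0.02.

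Between FDG-decreased and FDG-increased ileum the replicate block called 122 genes and 1 member, where limma without it called 0 (110 at an unadjusted p under 0.05). The block called 101 genes with the median shift and 90 with quantile normalization, and 51, 271 and 233 without pair 1, 2 or 3, fitted without robust variances because a single residual degree of freedom is left. Members called were 1 (Higd1a) without pair 2 and 0 in the other 4 of these. With 1 library left out 0 to 1 genes were called, the 1 without FDG-decreased replicate 1. The median member difference of FDG-decreased against sham ileum, 0.08, ranged from -0.083 to 0.304 with 1 library left out, the highest without sham replicate 1, and was -0.04 with the median shift.

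Among 351 values of single members under alternatives, 313 kept direction and side, 2 passed the threshold, 34 tested values turned sign, and 2 of the lane 7 values without a test moved (0.61 for Ankrd37, and 0.0651 for Egln3, which also turned sign); no value that turned sign was called, and the cause was not tested. Many of the 351 values could not turn sign. The replicate block, no level filter and limma without trend and robust variances leave the difference of the main fit unchanged, as 0.649 for Hif1a against sham. The block joined to a scaling or to leaving out a pair repeats the difference found without the block. In these only the adjusted p could change. Against sham, lane as a covariate and lane 7 alone both reduce to FDG-increased replicate 1 of the sham table against sham. Their values had to be equal and count as 1 check, although both are among the 351. They were -0.345 for Hif1a, -0.176 for Vegfa, -0.707 for Bnip3, -0.0826 for Egln3 and -0.0097 for Ankrd37. With the lane 7 library taken by its shared column they were 0.413 for Hif1a, 0.574 for Vegfa, 0.000691 for Bnip3, 0.273 for Egln3 and -0.0403 for Ankrd37. Bnip3 gave -0.0474 with the median shift and -0.116 with quantile normalization, each with and without the block. With 1 library left out the difference from sham ran from -0.353 to 0.508 for Bnip3, -0.0327 to 0.535 for Egln3, -0.493 to 0.188 for Ndrg1 and -0.025 to 0.338 for Ankrd37. Between the RYGB groups it ran from -0.95 to 0.0016 for Hif1a, -0.0785 to 0.503 for Ndrg1, -0.0211 to 0.408 for Ankrd37 and -0.467 to 0.439 for Ddit4. Without pair 1, with and without the block, it was -0.0862 for Ankrd37 and 0.0873 for Ddit4, and without pair 3 it was 0.0269 for Ddit4. Lane 7 alone holds 1 library a group in the RYGB table, so it gave values without a test. Depth is unknown, so no limit of detection is given.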
